A study of Mus musculus with 6 samples.

Results

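The 71 genes described here carry the symbols of mitochondrial ribosomal proteins, Mrpl for the large subunit and Mrps for the small subunit. They were taken by symbol, as every gene with an array feature of its own whose symbol is Mrpl or Mrps followed by a number and at most 1 letter, out of 22180 genes in all. By symbol 43 belong to the large and 28 to the small subunit, and no difference between groups entered the choice. Another 7 genes with such symbols, Mrpl30, Mrpl33, Mrpl41, Mrpl43, Mrpl44, Mrpl53 and Mrps6, had only features that also name another gene and were not used here.

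Mitochondria translate the few proteins that their own DNA encodes on this dedicated ribosome, and nearly all of those proteins are core subunits of the respiratory chain and ATP synthase. The ribosomal RNAs come from mitochondrial DNA, whereas every ribosomal protein is encoded in the nucleus, made in the cytosol and imported. The small subunit binds the mRNA and reads its codons; the large subunit joins amino acids and releases the chain toward the inner membrane. Macrophages shift between glycolytic and respiratory metabolism when they are activated, which makes the capacity of this machinery of interest in them.

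The cells were J774A.1, an established macrophage-like tumour line from a BALB/c mouse, so the arrays describe 1 line and not primary macrophages. In the NPFF group the cells received neuropeptide FF, an amidated peptide that acts on G-protein-coupled receptors, at 1 nM in PBS for 18 h (3 arrays). In the control group they received PBS alone for 18 h (3 arrays); the titles call these cells non-treated. All cells grew in RPMI-1640 with 10% FCS to 80% confluence. The titles call the arrays of a group biological replicates but do not say how the cultures were separated, and the spread behind each p-value is that between these 6 arrays. Of the macrophage markers, 11 were measured, with a median signal at the 95.2nd percentile of all genes; the medians of the fibroblast, endothelial, epithelial and lymphocyte lists lay between the 25.6th and the 44.8th percentile. Among their defining markers Epcam stood at the 10.8th, Cd3e at the 24.0th, Pecam1 at the 41.8th and Col1a1 at the 54.6th percentile. The brightest epithelial marker stood at percentile 62.75, above the dimmest macrophage marker at 58.76. The brightest fibroblast, endothelial and lymphocyte markers stood at 55.92, 44.69 and 33.35.

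Levels are log2 intensities after quantile normalization, and differences are NPFF minus control on that log2 scale. A feature's intensity depends on its probes, so levels of different genes were not set against each other as amounts of RNA. Control 1 stood apart from the other arrays before any result is read. Its genes departed from the mean of the other 5 arrays with a standard deviation (SD) of 0.37, against 0.11 to 0.13 for the NPFF arrays and 0.12 to 0.21 for controls 3 and 2. Across genes, which are no replicates, arrays correlated with Pearson's r of 0.996 to 0.997 within the NPFF group and 0.965 to 0.996 among controls. In bulk RNA, a lower level in all cells and fewer cells with the transcript cannot be told apart.

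No mitoribosomal protein gene differed between NPFF and control by limma after Benjamini-Hochberg adjustment over all genes. The smallest adjusted p among the 71 was 0.9996, 0 of them were under 0.05, and the share of all genes under 0.05 was 0%. Before adjustment, p was under 0.05 for 2 of the 71, or 2.82%, against 2.51% of all genes. These were Mrpl3, higher in NPFF (0.834% of all genes), and Mrpl32, lower in NPFF (1.67% of all genes). The values of both groups did not overlap in 8 of the 71, or 11.3%, against 8.58% of all genes. Of these 8, 4 were higher (3.67% of all genes) and 4 lower (4.92% of all genes). These shares lay near those of the whole array, and the differences below are given as measured.

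The mean of the NPFF arrays was above the mean of the controls in 53 of the 71 genes, or 74.6%, against 51.7% of all genes. The median difference was 0.08 over the 71 genes and 0.00 over all genes. Most of the genes were bright, 68 of them above the median signal of all genes, and among genes brighter than that median 57.2% were higher in NPFF, with a median difference of 0.02. After cyclic loess in place of quantile normalization, 44 of the 71 were higher. Single differences ran from -0.25 for Mrpl32 to 0.34 for Mrps25, and 39 of the 71 lay within 0.10 of 0.

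This lean toward higher levels appeared against control 1 and not against control 2 or control 3. Against control 1, the NPFF mean was higher in 60 of the 71 genes (62.6% of all genes), with a median difference of 0.28. Against control 2 it was higher in 27 (35.8% of all genes), with a median of -0.03. Against control 3 it was higher in 28 (48% of all genes), also with a median of -0.03. The corresponding medians over all genes were 0.07, -0.04 and -0.00. With control 1 left out, 28 genes were higher and 43 lower in NPFF, with a median of -0.03, against 39.1% of all genes higher and a median of -0.02.

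The same held for single arrays. NPFF 1, NPFF 2 and NPFF 3 had median differences of 0.26, 0.33 and 0.21 from control 1 over the 71 genes. From control 2 they were -0.06, 0.03 and -0.08, and from control 3 they were -0.02, 0.01 and -0.08. NPFF 2 was therefore the single NPFF array with positive medians against all controls. Within the NPFF group it was the highest array for 40 of the 71 genes, and NPFF 3 was the lowest for 40. As a level, the mean over the 71 genes was 8.50, 8.56 and 8.46 in NPFF arrays 1 to 3, against 8.23, 8.54 and 8.54 in control arrays 1 to 3. Controls 2 and 3 lay inside the range of the NPFF arrays and control 1 lay below all 5 others.

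**Figure D1:**
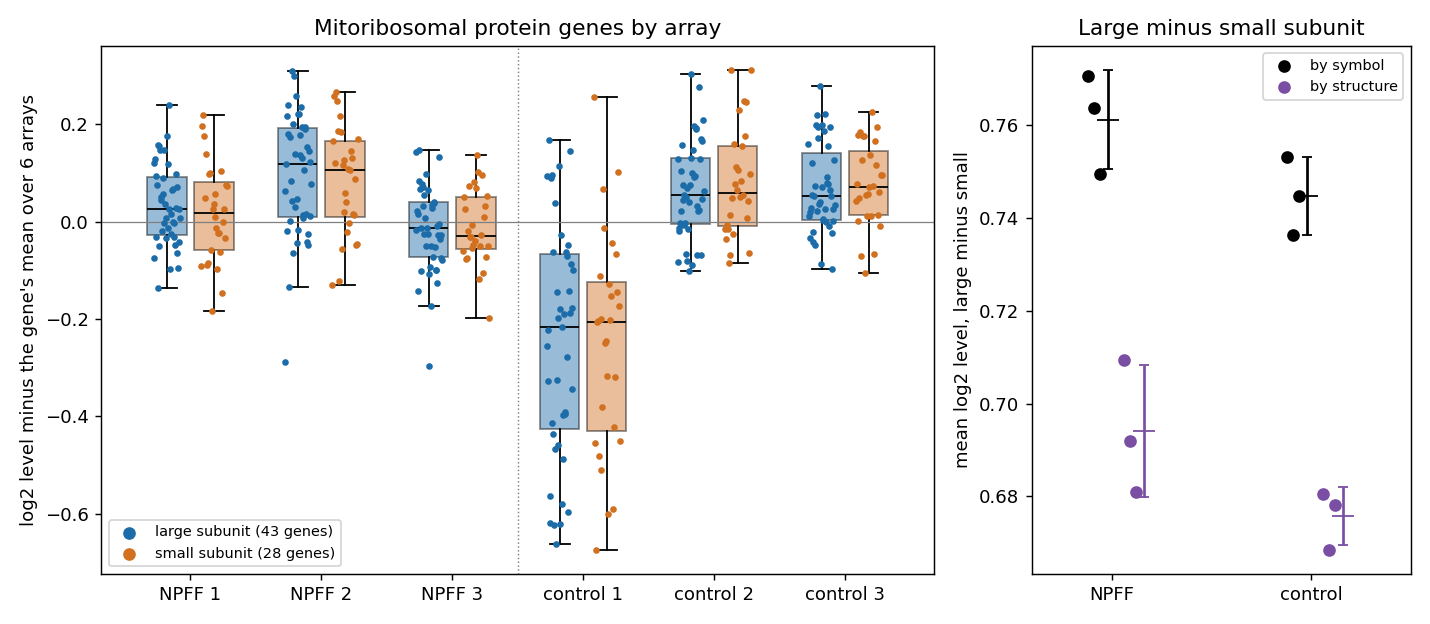
Left, the log2 level of each of the 71 genes minus that gene's mean over the 6 arrays, by array, with boxes for the quartiles of the large and small subunit genes (43 and 28). Right, the mean log2 level of the large subunit genes minus that of the small subunit genes in each array, with mean and SD per group; the vertical axis does not start at 0. Medians sit near -0.21 in control 1 and between -0.03 and 0.12 in the other arrays for both subunits.

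Large and small subunit genes followed the same pattern across the arrays. Of the 43 large subunit genes 34 were higher in NPFF, with a median difference of 0.08. Of the 28 small subunit genes 19 were higher, with a median of 0.06. The large subunit genes had medians of 0.25, -0.03 and -0.03 against controls 1, 2 and 3, and 36, 17 and 18 of them were higher. The small subunit genes had medians of 0.28, -0.05 and -0.05, and 24, 10 and 10 of them were higher. Measured from the mean of all 6 arrays, control 1 had a median deviation of -0.22 over the large and -0.21 over the small subunit genes.

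The balance of the subunits, the mean level of the large minus that of the small subunit genes, was 0.77, 0.76 and 0.75 in NPFF arrays 1 to 3, against 0.75, 0.74 and 0.74 in control arrays 1 to 3. The groups overlapped, since NPFF 3 lay below control 1. The group means were 0.76 ± 0.01 in NPFF and 0.74 ± 0.01 in control (SD, n = 3 each), a difference of 0.02. Against single controls the difference was 0.01, 0.02 and 0.02. Control 1 was low for both subunits, and its balance lay between those of NPFF 2 and NPFF 3. No test was made of this balance.

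Symbols and structure do not fully agree for this complex. In the mammalian mitoribosome Mrps30 and Mrps18a are built into the large subunit, where they are called mL65 and mL66, and Mrps36 is a component of the 2-oxoglutarate dehydrogenase complex and no subunit of the ribosome. By structure there were 45 large and 25 small subunit genes, with median differences of 0.08 in each. The balance was then 0.71, 0.69 and 0.68 in NPFF arrays 1 to 3 and 0.68, 0.67 and 0.68 in control arrays 1 to 3, a difference of 0.02. With this assignment the lowest NPFF array and the highest control differed by less than 0.01, and the groups did not overlap.

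The mitoribosome keeps proteins with bacterial homologues and has gained proteins found only in mitochondria. Here Mrps18a (mL66) and Mrps18b (mS40), though copies of the bS18 family, were counted with the mitochondria-specific genes. The 43 genes of the first kind had a median difference of 0.08, with 33 higher, and the 27 of the second kind 0.06, with 20 higher. Against control 1 their medians were 0.29 and 0.19. The mean level of the homologues minus that of the mitochondria-specific genes was -0.15, -0.17 and -0.16 in NPFF arrays 1 to 3, against -0.20, -0.15 and -0.14 in control arrays 1 to 3. Control 1 was the lowest array on this measure, control 2 lay within the NPFF range and control 3 above it.

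Control 1 was not low for every gene. It was the lowest of the 6 arrays for 54 of the 71, against 48.9% of all genes and 56.2% of genes brighter than the median. It lay more than 0.3 below the mean of the other 5 arrays for 31 of the 71, or 43.7%, against 20.8% of all genes. The genes named in this paragraph were chosen after their values were seen, as the 6 farthest below and all those with control 1 on top. Farthest below was Mrps25, a small subunit protein, at 8.35, 8.39 and 8.16 in the NPFF arrays, against 7.46 in control 1 and 8.13 and 8.31 in controls 2 and 3. Mrpl2, a large subunit protein at the catalytic core, stood at 8.15, 8.36 and 8.07 in NPFF, against 7.40, 8.13 and 8.26 in controls 1 to 3. Mrpl18, Mrpl11, Mrpl34 and Mrps16 lay 0.72 to 0.75 below the mean of the other 5 arrays.

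Control 1 was the highest array for 6 of the 71 genes, against 24% of all genes. These were Mrps18c, Mrpl16, Mrpl50, Mrpl55, Mrps31 and Mrpl52, at 0.11 to 0.31 above the mean of the other 5 arrays. So 2 of the 4 genes that were lower in NPFF without overlap, Mrps18c and Mrpl16, had their highest value in control 1. Mrpl10, Mrpl3, Mrpl48 and Mrpl39, the genes higher without overlap, had their lowest value there.

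**Figure D2:**
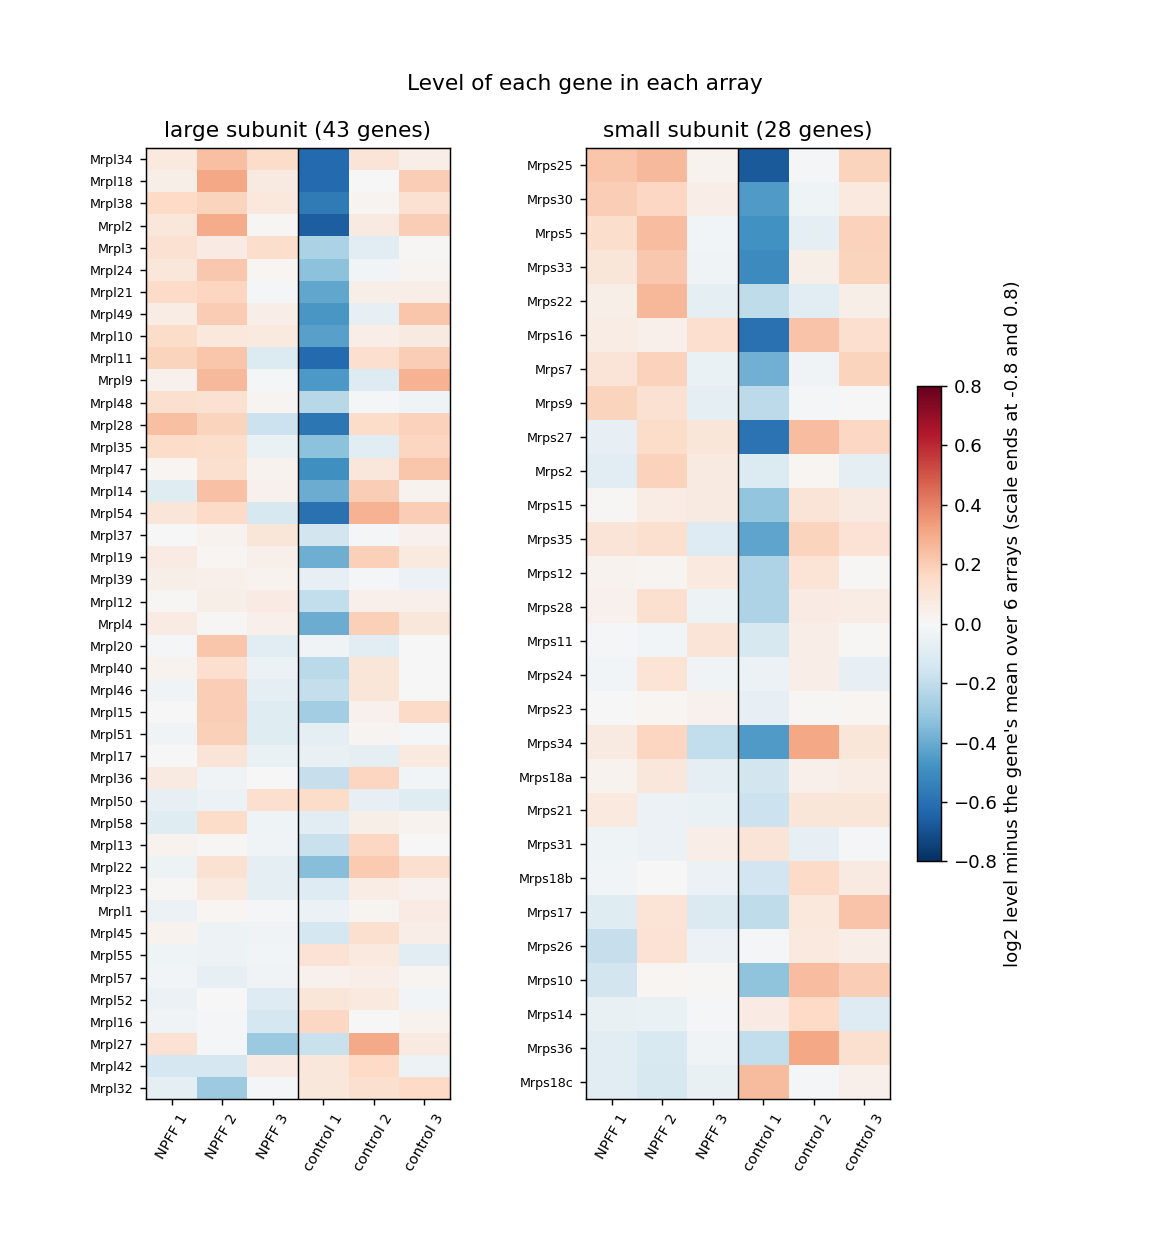
Each row is 1 of the 71 genes and each column 1 array, NPFF arrays left of the line and controls right of it; colour is the log2 level minus the gene's mean over the 6 arrays, and rows run from the highest to the lowest difference of NPFF minus control. The blue control 1 column covers most rows of both subunits, 54 genes being lowest there, while a few rows at the bottom, such as Mrps18c, are red in it.

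The spread was smaller in the NPFF group for 60 of the 71 genes, or 84.5%, against 80.4% of all genes. As a median over the 71 genes, that SD was 0.08 among NPFF arrays and 0.18 among controls. The NPFF mean lay above each of the 3 controls in 15 genes, or 21.1% (11.9% of all genes), and below each of them in 7, or 9.86% (13.2% of all genes). Among these 15 were Mrpl20, Mrpl21, Mrpl34, Mrpl37, Mrpl38, Mrps2, Mrps9, Mrps22 and Mrps23, named after their values were seen, and genes described next.

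Among the proteins around the peptidyl transferase centre, where peptide bonds form, Mrpl3 was higher and Mrpl16 lower in NPFF. Mrpl3, the uL3m protein (feature 17521070), stood at 9.69, 9.64 and 9.72 in the NPFF arrays, against 9.32, 9.49 and 9.58 in controls 1 to 3. All NPFF values were above all controls, by 0.22 on average (standard error, SE, 0.08) or 1.16-fold, with an unadjusted p of 0.0384 by limma. Against controls 1, 2 and 3 alone its difference was 0.36, 0.19 and 0.10; without control 1 it was 0.15. Mrpl16, the uL16m protein (feature 17357741), stood at 9.58, 9.59 and 9.47 in NPFF, against 9.78, 9.61 and 9.64 in controls 1 to 3, a difference of -0.13 (SE 0.08). Its NPFF arrays were all lower, NPFF 2 only narrowly below control 2; the difference without control 1 was -0.08. The bL27m gene Mrpl27, whose bacterial counterpart also reaches toward this centre, was 1 of the 3 dimmest of the 71 and stood at 6.40, 6.26 and 5.98 in NPFF, against 6.10, 6.58 and 6.35 in controls 1 to 3.

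The most negative difference among the 71 was that of Mrpl32. Mrpl32 (feature 17290770) encodes bL32m, which the m-AAA protease of the inner membrane must cleave before it joins the large subunit. It stood at 8.93, 8.72 and 8.99 in the NPFF arrays, against 9.10, 9.13 and 9.16 in controls 1 to 3. All NPFF values were below all controls, and here the controls lay close together while NPFF 2 was the lowest array. The difference was -0.25 (SE 0.09), or 0.839-fold, with an unadjusted p of 0.0233 by limma. Against controls 1, 2 and 3 alone it was -0.22, -0.26 and -0.29, and with single arrays left out it ranged from -0.31 to -0.17. It was largest in size without NPFF 3 and smallest without NPFF 2.

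The stalk of the large subunit, which recruits the translation factors that hydrolyse GTP, is formed by the products of Mrpl10, Mrpl11 and Mrpl12. Mrpl10 (feature 17255719), its base, stood at 10.05, 9.98 and 9.98 in NPFF, against 9.46, 9.96 and 9.98 in controls 1 to 3. The groups did not overlap, but only control 1 stood clear of the NPFF arrays; the difference of 0.21 (SE 0.14) was 0.04 without it. Mrpl11 stood at 7.83, 7.88 and 7.55 in NPFF, against 7.03, 7.79 and 7.85 in controls 1 to 3, and its difference of 0.19 (SE 0.23) was -0.07 without control 1. Mrpl12, also described as a binding partner of the mitochondrial RNA polymerase, stood at 8.22, 8.26 and 8.27 in NPFF, against 8.01, 8.25 and 8.25 in controls 1 to 3. All 3 stalk genes thus differed from control 1 by more than from the other controls.

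Of the genes for proteins at the exit tunnel, through which the new chain leaves, Mrpl23, Mrpl24 and Mrpl45 are given here, and their groups overlapped. Mrpl24, for uL24m, stood at 10.25, 10.38 and 10.18 in NPFF, against 9.83, 10.14 and 10.18 in controls 1 to 3, a difference of 0.22 (SE 0.11) that was 0.11 without control 1. Mrpl23, for uL23m and 1 of the 3 brightest genes, differed by 0.00 (SE 0.08). Mrpl45, whose product lines the tunnel exit and tethers the ribosome to the inner membrane, stood at 8.18, 8.11 and 8.12 in NPFF, against 8.01, 8.28 and 8.21 in controls 1 to 3, a difference of -0.03 (SE 0.09). Its NPFF arrays lay between control 1 and the other controls.

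Among the mitochondria-specific proteins of the large subunit, Mrpl48 and Mrpl39 were higher in NPFF without overlap, and Mrpl57 was lower. Mrpl48 (feature 17493786), a protein of the central protuberance, stood at 7.32, 7.31 and 7.21 in NPFF, against 6.97, 7.18 and 7.16 in controls 1 to 3, a difference of 0.18 (SE 0.08) or 1.13-fold. It was 0.11 without control 1. Mrpl39 (feature 17331642) stood at 9.86, 9.86 and 9.85 in NPFF, against 9.75, 9.81 and 9.77 in controls 1 to 3. Its difference of 0.08 (SE 0.06) was small. It lay between 0.07 and 0.10 when single arrays were left out, and was 0.03 after cyclic loess in place of quantile normalization. Mrpl57 (feature 17300944), for the short protein mL63, stood at 8.97, 8.92 and 8.96 in NPFF, against 9.03, 9.04 and 9.01 in controls 1 to 3. Its difference was -0.07 (SE 0.06), -0.08 to -0.06 with single arrays left out and -0.11 after cyclic loess. For Mrpl39 controls 1, 2 and 3 lay 0.10, 0.05 and 0.09 below the NPFF mean. For Mrpl57 they lay 0.07, 0.09 and 0.06 above it.

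Mrpl42, another mitochondria-specific protein, stood at 8.87, 8.87 and 9.07 in NPFF, against 9.09, 9.16 and 8.96 in controls 1 to 3, and its groups overlapped. Mrps30, in the large subunit by structure, stood at 8.36, 8.33 and 8.22 in NPFF, against 7.71, 8.13 and 8.25 in controls 1 to 3; its difference of 0.27 (SE 0.14) was 0.12 without control 1. Mrpl58, a peptidyl-tRNA hydrolase built into the large subunit that can rescue stalled ribosomes, differed by 0.01 (SE 0.09). The brightest of the 71 was Mrpl52, with 10.92, 10.97 and 10.86 in NPFF, against 11.06, 11.04 and 10.94 in controls 1 to 3, a difference of -0.10 (SE 0.07).

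**Figure D3:**
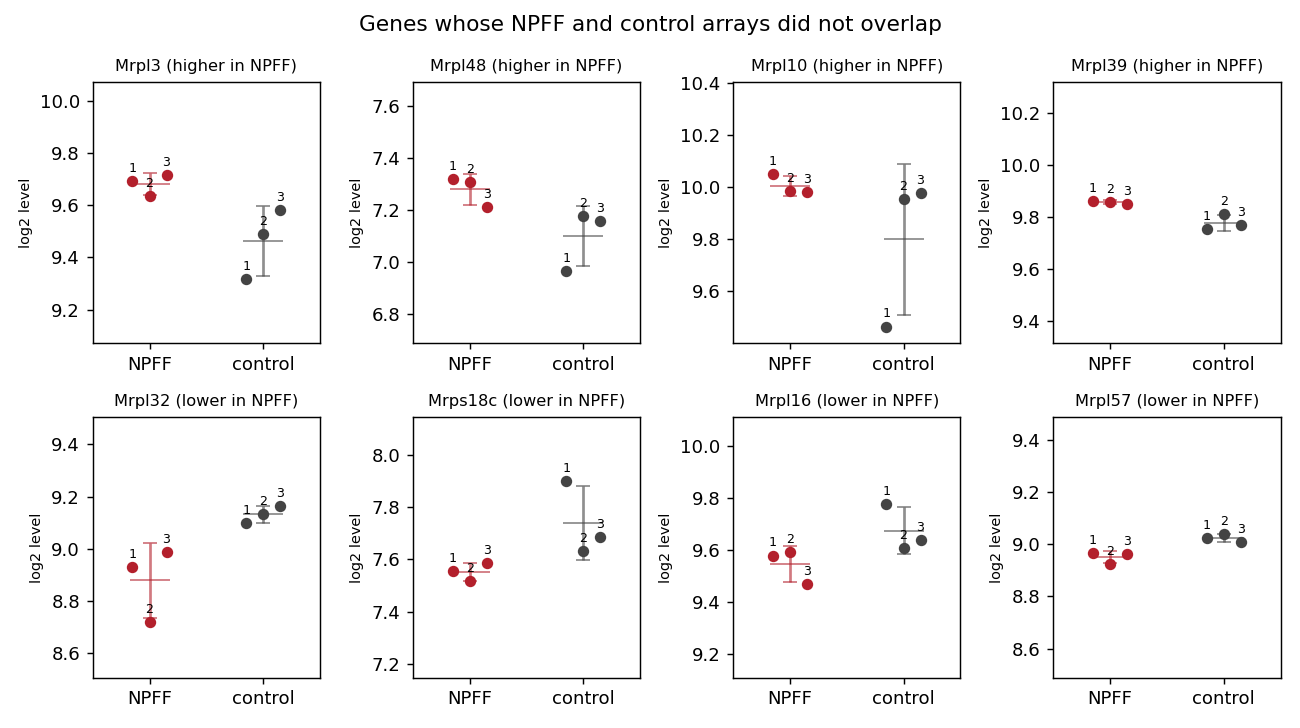
The log2 level in each array of the 8 genes whose NPFF and control arrays did not overlap, with replicate numbers beside the points and mean and SD as bars; each panel spans 1 log2 unit. Control 1 lies farthest from the NPFF arrays for Mrpl3, Mrpl48, Mrpl10, Mrps18c and Mrpl16, and within or near the other controls for Mrpl39, Mrpl32 and Mrpl57.

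The bS18 family has 3 copies in mitochondria, against a single bacterial protein, and their values were unlike. Mrps18c (feature 17547990), the copy in the position closest to the bacterial one, stood at 7.55, 7.52 and 7.59 in NPFF, against 7.90, 7.63 and 7.69 in controls 1 to 3. Its NPFF arrays were all lower, with a difference of -0.19 (SE 0.09) or 0.878-fold and -0.11 without control 1. Mrps18b stood at 9.63, 9.65 and 9.61 in NPFF, against 9.505, 9.81 and 9.73 in controls 1 to 3, a difference of -0.05 (SE 0.09) that was -0.14 without control 1. Mrps18a, the copy of the large subunit, differed by 0.03 (SE 0.08). For Mrps18a and Mrps18b the NPFF arrays lay above control 1 and overlapped with or lay below the other controls.

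Mrps12, whose product uS12m lies at the decoding site, stood at 6.35, 6.34 and 6.40 in NPFF, against 6.07, 6.43 and 6.33 in controls 1 to 3, a difference of 0.08 (SE 0.10). Mrps5, a gene whose natural variation has been linked to lifespan in mice, stood at 8.74, 8.85 and 8.58 in NPFF, against 8.12, 8.53 and 8.79 in controls 1 to 3. Its difference of 0.25 (SE 0.17) was 0.07 without control 1 and -0.06 against control 3 alone. Mrps15, 1 of the 3 brightest, differed by 0.09 (SE 0.12), and by -0.04 without control 1. Mrps36, the dimmest of the 71 and no ribosomal subunit by structure, stood at 5.53, 5.50 and 5.59 in NPFF, against 5.42, 5.93 and 5.75 in controls 1 to 3. Its difference of -0.16 (SE 0.13) was -0.30 without control 1. In these 4 genes the groups overlapped, and control 1 held the lowest value.

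With control 1 left out, 5 of the 71 genes had an unadjusted p under 0.05 by limma, against 10.8% of all genes. Of these, Mrpl3 was higher (3.59% of all genes) and Mrpl32, Mrps36, Mrps10 and Mrps18b were lower (7.21% of all genes). None of the 71 passed after adjustment, the share over all genes was 0%, and the adjusted p of Mrpl32 and Mrpl3 was 0.378 and 0.458. Mrps10, a protein of the small subunit head named here after its values were seen, differed by -0.26 without control 1.

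For 9 of the 71 genes the array held a second feature, dimmer than the one used. Mrps18c was lower in NPFF on both its features, by -0.19 and -0.10. Mrpl10 differed by 0.21 on the feature used and by -0.03 on the other, and Mrpl12 by 0.08 and -0.13. Mrps5 differed by 0.25 and -0.00, and Mrps18b by -0.05 and 0.10, its features being nearly equal in signal. Mrpl47 differed by 0.12 and -0.31, the widest gap, and Mrps16 by 0.16 and -0.03. Mrpl36 differed by 0.03 and 0.07, and Mrps17 by -0.07 and -0.05. The second features of Mrpl10, Mrpl12, Mrpl36, Mrps5 and Mrps18c lay at mean levels of 6.08 to 6.43, near the median of all features. Those of Mrpl47, Mrps16 and Mrps17 were dimmer still, at 5.62, 5.42 and 5.93.

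Nuclear genes for mitochondrial proteins are known targets of the transcription factors NRF1 and GABPA, and promoters of members that separated the groups are shown to let their letters be compared. RefSeq promoters (GRCm38.p6) matched 62 of the 71 genes by symbol, and the 250 bases upstream of the start were searched on both strands. The NRF1 letters GCATGCGC were found in 7 of 62, or 11.3%, against 2.56% of all 27025 genes with a promoter. The longer NRF1 letters, the same run with GC before it, overlap these and were found in 3, or 4.84%, against 0.877%. The GABPA and ETS-family letters CCGGAAG were found in 16, or 25.8%, against 7.83%. The YY1 letters AAGATGGCG were found in 2, or 3.23%, against 0.71%, and the E-box CACGTG, which MYC can bind, in 5, or 8.06%, against 6.86%. These are matches of letters and not shown binding sites. Genes with the CCGGAAG letters had a median difference of 0.04 and those without them 0.08, and the shorter NRF1 letters and the YY1 letters gave the same pair of values. For the longer NRF1 letters the medians were 0.08 and 0.07, and for the E-box 0.08 and 0.07.

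Capitals mark the NRF1, ETS and E-box letters in the promoters of 2 genes that were higher and 2 that were lower in NPFF without overlap, read from the 5′ end toward the start of transcription. They lie at chr9:105053018-105053267 on the plus strand, chr16:84735245-84735494 on the minus strand, chr13:14613038-14613287 on the minus strand and chr5:100798509-100798758 on the plus strand, in the order below.
Mrpl3: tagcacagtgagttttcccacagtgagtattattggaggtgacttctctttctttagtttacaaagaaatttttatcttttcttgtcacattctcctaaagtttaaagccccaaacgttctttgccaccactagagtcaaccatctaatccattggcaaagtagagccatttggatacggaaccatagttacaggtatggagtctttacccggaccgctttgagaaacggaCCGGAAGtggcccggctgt
Mrpl39: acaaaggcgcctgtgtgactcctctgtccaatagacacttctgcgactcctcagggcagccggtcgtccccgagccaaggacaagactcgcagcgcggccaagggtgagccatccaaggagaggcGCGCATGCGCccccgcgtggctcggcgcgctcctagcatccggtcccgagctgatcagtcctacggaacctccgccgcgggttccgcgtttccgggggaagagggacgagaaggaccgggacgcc
Mrpl32: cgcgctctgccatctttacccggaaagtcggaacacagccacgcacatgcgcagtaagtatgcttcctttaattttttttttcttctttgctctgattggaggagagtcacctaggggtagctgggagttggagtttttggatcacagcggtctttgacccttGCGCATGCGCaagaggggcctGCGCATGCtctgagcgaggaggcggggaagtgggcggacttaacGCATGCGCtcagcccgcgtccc
Mrps18c: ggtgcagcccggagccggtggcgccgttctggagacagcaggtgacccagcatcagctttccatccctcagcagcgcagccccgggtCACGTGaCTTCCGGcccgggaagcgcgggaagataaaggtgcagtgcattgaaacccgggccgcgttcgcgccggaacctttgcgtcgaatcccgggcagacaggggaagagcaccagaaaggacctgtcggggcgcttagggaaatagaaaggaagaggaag

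Mrpl39, higher in NPFF, and Mrpl32, lower, both held the longer NRF1 letters, beginning 125 and 87 bases upstream of the start, and Mrpl32 held 2 more copies of the shorter form. Mrpl3, higher, and Mrps18c, lower, both held the ETS letters, 19 and 156 bases upstream. Among the printed promoters, the same letters stood before genes that differed in opposite directions. Of the other genes without overlap, Mrpl48 held the ETS letters and Mrpl10 the shorter NRF1 letters, and both were higher. For Mrpl16 and Mrpl57, both lower, no match was recorded, and 9 of the 71 genes had no promoter to search. Whether the letters go with the direction of a difference was not tested.

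Proteins of the mitoribosome that are not named Mrpl or Mrps were looked at beside them. Of 7 such symbols, 3 were measured under their own name, and Ict1 and Mrp63 are older symbols of Mrpl58 and Mrpl57. Ptcd3, a small subunit protein at the mRNA entry, stood at 9.70, 9.63 and 9.59 in NPFF, against 9.55, 9.45 and 9.59 in controls 1 to 3, a difference of 0.11 (SE 0.07) with no overlap. Dap3, a GTP-binding small subunit protein, differed by 0.09 (SE 0.11) and by -0.01 without control 1. Gadd45gip1, of the large subunit, differed by 0.06 (SE 0.08). Of these 3 genes only Ptcd3 was without overlap, and 3.67% of all genes were higher without overlap.

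The genes that build and serve the mitoribosome had none past the adjusted threshold. Of 29 assembly and rRNA modification genes 16 were higher, with a median difference of 0.01; without control 1 there were 10, with a median of -0.05. Pusl1, a pseudouridine synthase, had 9.07, 9.10 and 9.07 in NPFF, against 8.64, 8.85 and 9.07 in controls 1 to 3, a difference of 0.22 (SE 0.11) that was 0.115 without control 1. Tfb1m, which methylates the small ribosomal RNA, stood at 9.51, 9.504 and 9.46 in NPFF, against 9.61, 9.60 and 9.51 in controls 1 to 3, without overlap and with a difference of -0.08 (SE 0.06). Lyrm4 is known from iron-sulfur cluster assembly but was counted in this list. It stood at 10.52, 10.56 and 10.66 in NPFF, against 11.49, 10.74 and 10.66 in controls 1 to 3. Its groups did not overlap, NPFF 3 being only narrowly below control 3. Its difference of -0.38 (SE 0.22) was -0.12 without control 1. Tfb1m and Lyrm4 were the 2 of 29 lower without overlap, against 4.92% of all genes. Of the 29, 0 were higher without overlap, against 3.67% of all genes. Ngrn, for a mitoribosome assembly factor, differed by 0.41 (SE 0.25), and by 0.12 without control 1.

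Of 17 translation factor and insertion genes 10 were higher, with a median of 0.02; without control 1 there were 3, with a median of -0.04. Tufm, the elongation factor that delivers tRNAs, differed by 0.02 (SE 0.06), and Lrpprc, which stabilises mitochondrial mRNAs, differed by -0.04 (SE 0.09). Coa3 and Taco1, which act in the synthesis of cytochrome oxidase subunit I, differed by 0.11 (SE 0.09) and 0.10 (SE 0.10), and by 0.03 and -0.01 when control 1 was left out. The initiation factor Mtif2 and the release factor family member Mtrf1 differed by -0.10 (SE 0.07) and -0.09 (SE 0.08), and by -0.06 and -0.15 when control 1 was left out. In all of these the groups overlapped.

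Of 19 genes for mitochondrial aminoacyl-tRNA synthetases and the related amidotransferase 13 were higher, with a median of 0.09; without control 1 there were 5, with a median of -0.05. Fars2, Wars2 and Nars2, or 3 of the 19, were lower without overlap, against 4.92% of all genes; Nars2 is named after its values were seen. Fars2, which charges phenylalanine tRNA, stood at 8.10, 8.13 and 8.11 in NPFF, against 8.32, 8.27 and 8.21 in controls 1 to 3. It differed by -0.155 (SE 0.06), with an unadjusted p of 0.0397 by limma. Wars2, for tryptophan, stood at 7.63, 7.57 and 7.58 in NPFF, against 7.67, 7.73 and 7.69 in controls 1 to 3. Cars2 and Yars2, for cysteine and tyrosine, differed by 0.15 (SE 0.09) and 0.14 (SE 0.08), with overlap, and by 0.07 and 0.07 when control 1 was left out.

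Of 12 genes for mitochondrial DNA maintenance and transcription 5 were higher, with a median of -0.04; without control 1 there were 3, with a median of -0.05. Tfam, which packages mitochondrial DNA and starts its transcription, stood at 7.39, 7.42 and 7.19 in NPFF, against 6.08, 7.35 and 7.19 in controls 1 to 3. Control 1 lay far below the other 5 arrays, and the difference of 0.46 (SE 0.32) was 0.06 without it. Polrmt, the mitochondrial RNA polymerase, stood at 8.60, 8.76 and 8.69 in NPFF, against 8.001, 8.68 and 8.67 in controls 1 to 3, with a difference of 0.01 without control 1. Tfb2m, its initiation partner, differed by -0.22 (SE 0.10), Mterf1a by -0.12 (SE 0.09) and the DNA polymerase Polg by 0.15 (SE 0.09). When control 1 was left out, these were -0.15, -0.18 and 0.06.

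Of 13 transcription regulators known to act on such genes 7 were higher, with a median of 0.01; without control 1 there were 9, with a median of 0.02. Nrf1 stood at 8.26, 8.18 and 8.02 in NPFF, against 7.81, 8.03 and 8.05 in controls 1 to 3, a difference of 0.19 (SE 0.10) with overlap that was 0.11 without control 1. Gabpa differed by 0.01 (SE 0.06). Myc, which activates many ribosome genes, stood at 8.53, 8.65 and 8.71 in NPFF, against 8.77, 8.90 and 8.74 in controls 1 to 3, lower without overlap by -0.17 (SE 0.08). Atf4, of the stress response to mitochondrial faults, differed by -0.10 (SE 0.06), also without overlap. Myc and Atf4 were among 3 of the 13 regulators that were lower without overlap, against 4.92% of all genes. Of the 13, 0 were higher without overlap, against 3.67% of all genes. The coactivator Ppargc1b differed by 0.23 (SE 0.12), and by 0.10 when control 1 was left out, while Ppargc1a, with a signal percentile of 5.93, differed by -0.05 (SE 0.06).

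The proteins that this ribosome makes are encoded by mitochondrial DNA, and 10 such genes were measured. They ran opposite to the mitoribosomal genes in control 1, with a median deviation from the mean of all arrays of 0.14 there and -0.10 in control 2. In the NPFF arrays it lay between -0.02 and -0.00. Of the 10, 2 were higher in NPFF, with a median difference of -0.02. ND4 stood at 13.73, 13.73 and 13.75 in NPFF, against 13.93, 13.70 and 13.75 in controls 1 to 3. Except for ND6, their levels lay at the top of the signal range, from 13.05 (ND2 in control 2) to 13.93 (ND4 in control 1), and whether they were saturated was not tested. ND6, named after its values were seen, stood at 8.46, 8.60 and 8.57 in NPFF, against 9.501, 8.001 and 8.60 in controls 1 to 3. Control 1 was the highest array for 8 of the 10, and without it 9 were higher in NPFF, with a median of 0.04.

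Cytosolic ribosomal protein and nuclear-encoded oxidative phosphorylation genes served as the lists most like the mitoribosomal genes. Of 57 cytosolic ribosomal protein genes 44 were higher, with a median of 0.07, and their medians against controls 1, 2 and 3 were 0.25, 0.01 and -0.03. Of 70 oxidative phosphorylation genes 39 were higher, with a median of 0.01 and medians of 0.19, -0.02 and -0.01. Without control 1 these counts were 27 and 31. The mitoribosomal medians of 0.28, -0.03 and -0.03 were likewise positive against control 1 and near 0 against the other controls. The lists share the same 3 control arrays, and no difference between lists was tested.

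**Figure D4:**
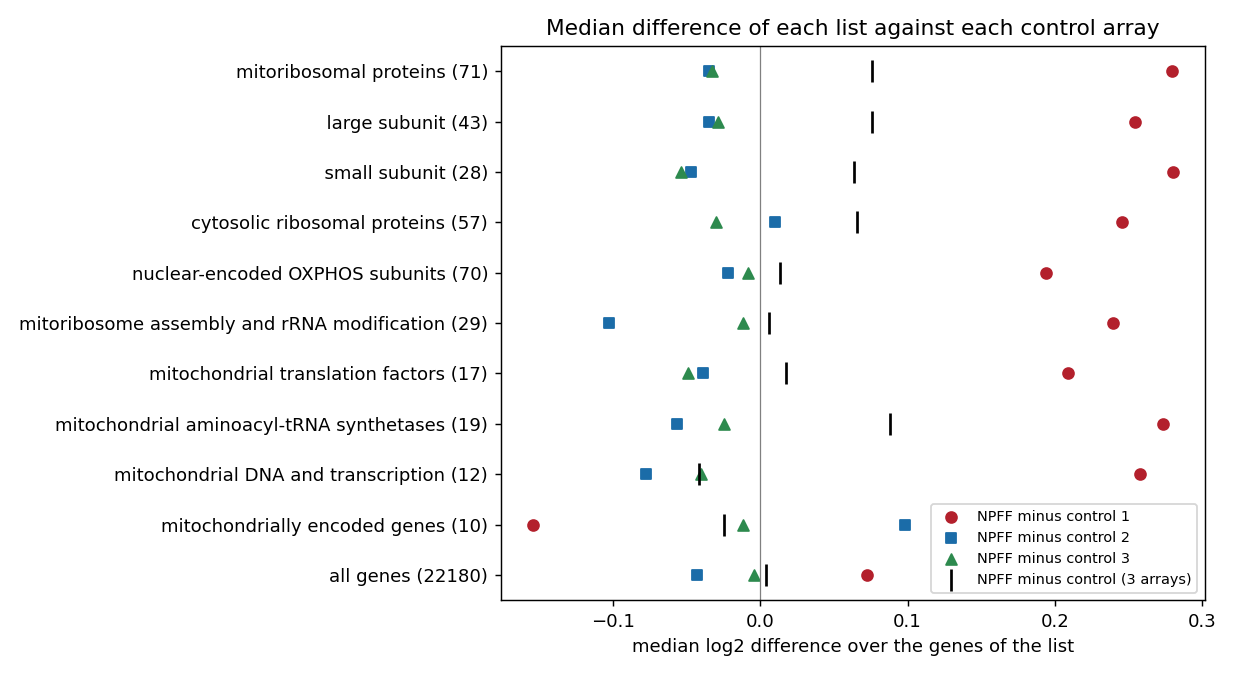
The median log2 difference over the genes of each list (number of genes in brackets) for the NPFF mean minus control 1, control 2 and control 3, and minus the mean of the 3 controls (black bars). For the mitoribosomal genes control 1 gives 0.28 and controls 2 and 3 both give -0.03; the mitochondrially encoded genes lie on the other side of 0 for control 1, and the lists share their arrays.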

How the data were processed

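Log2 intensities of 6 Affymetrix whole-transcript arrays were used, as deposited by the authors; the scale was read from their range of 4.59 to 14.00. Per the labels' protocols, 500 ng of RNA per sample was biotin-labelled. How the authors normalized them, and a genome build, is not given in the sources used here. Arrays carry no counting depth, and 3 per group limits the precision.

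The 33794 features were quantile-normalized, since sorted values departed from their mean by up to 0.17. A platform annotation paired 23521 features with 1 symbol, 1814 with several and 8459 with none. Of the features with 1 symbol the brightest per gene was kept, giving 22180 genes, with no filter on dim genes. All 71 mitoribosomal genes entered the fit, and their gene IDs and symbols matched RefSeq.

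Groups came from the titles. NPFF and control were compared with limma 3.58.1 in R 4.3.3 (lmFit and eBayes, group only, 4 residual and 2.49 prior degrees of freedom), two-sided, and p-values were adjusted over all genes (Benjamini-Hochberg, threshold 0.05). Lists were described by counts and medians without a list test. The fit was tested on simulated data. Noise was drawn independently for each gene, so a shift that many genes share in 1 array was not simulated. The shares recovered hold for such noise only. Of simulated log2 changes of 0.5, 37.3% passed the threshold with equal arrays and 50.7% with the spread of the arrays as measured. For changes of 1 it was 86.6% in both. Smaller changes were not simulated, and the largest difference among the 71 genes was 0.34. Named genes were those without overlap, the 4 of smallest p in each direction, the 3 brightest and 3 dimmest, genes fixed for their role, and from each other list the 2 of smallest p in each direction; any others are said to be chosen after their values were seen. The members and lists were chosen with earlier results of these data known. Alternatives were other normalizations, a filter on dim genes, the mean over a gene's features, a replicate block, array weights and left-out arrays.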

Additional observations from a re-analysis of the deposited data

How the results depend on the processing

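No mitoribosomal gene passed the adjusted threshold of limma in any setting tried. Before adjustment 2 genes were under 0.05. There was 1 with the values as deposited (2.25% of all genes), 0 after centring each array on its median (1.67%) and 4 after cyclic loess (3.45%). There was 1 with dimmer genes left out (3.07%), 7 with array weights (8.41%) and 3 by a plain two-sample test (3.26%). With single arrays left out the counts ran from 0 without NPFF 2 (1.21%) to 5. The count of 5 came without control 1 (10.8%) and also without control 3 (4.22%). Groups did not overlap in 8 genes, in 4 as deposited (7.43%) and in 2 with median centring (6.28%). With single arrays left out, fewer arrays make separation easier, and the fewest were 10 without NPFF 2 (13.6% of all genes). Without control 1 there were 22 (27.3%), and without control 3 there were 24, the most (18.8%). With controls 1 and 2 left out, 4 genes were under 0.05 (5.09%) and 32 did not overlap (49.6%); the spread then comes from the NPFF arrays alone, the lone control being assumed to vary like them, and 1 control falls outside the NPFF range often by construction.

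The median difference over the 71 genes ranged over -0.0284 to 0.127 with single arrays left out, lowest without control 1; the large subunit ranged over -0.0284 to 0.1191 and the small over -0.0292 to 0.1416. With array weights these medians were -0.0238, -0.0205 and -0.024, and with controls 1 and 2 left out -0.0327, -0.0285 and -0.0537. The NPFF and control arrays of equal number did not all deviate together (r of 0.23, 0.451 and -0.331 across genes). NPFF 1 and NPFF 2 each had their highest r with the control of their own number, and NPFF 3 with control 1. These values cannot tell whether equal numbers mark pairs, and numbers were not read as pairs. With the replicate block 1 gene was under 0.05 (1.79% of all genes).

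Of the 24 named genes 14 kept their sign in every setting. These 14 include the 8 genes named because their groups did not overlap, whose sign cannot turn when arrays are left out. With 1 array left out, 19 of the 24 turned sign or changed more than 1.5-fold in size. Cyclic loess gave -0.0299 for Mrpl23, -0.0222 for Mrpl58, -0.0036 for Mrps18a. The mean over features gave -0.0249 for Mrpl12, 0.0265 for Mrps18b. Array weights gave -0.0238 for Mrps15, -0.0333 for Mrpl23, -0.0459 for Mrpl11, -0.0323 for Mrpl58, -0.0336 for Mrps18a. With controls 1 and 2 left out the values were -0.0257 for Mrps15, -0.0327 for Mrpl23, -0.103 for Mrpl11, 0 for Mrpl12, -0.0216 for Mrpl58, -0.0617 for Mrps5, -0.0481 for Mrps18a. With single arrays left out, signs turned within -0.0469 to 0.043 for Mrpl23, -0.0689 to 0.3412 for Mrpl11, -5e-04 to 0.1188 for Mrpl12, -0.1051 to 0.0307 for Mrpl45, -0.061 to 0.0596 for Mrpl58, -0.0196 to 0.1614 for Mrps12, -0.0427 to 0.1684 for Mrps15, -0.0382 to 0.07 for Mrps18a, -0.1391 to 0.0144 for Mrps18b. The cause of these changes was not tested, nor was the reason why control 1 stood apart.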
